A study of Mus musculus with 6 samples.

Results

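The genes described here encode scaffold proteins of the postsynaptic density, the protein layer under the membrane of excitatory synapses. The 10 genes of the set are Dlg1, Dlg2, Dlg3, Dlg4, Shank1, Shank2, Shank3, Dlgap1, Dlgap3 and Synpo. They were taken by their symbols from the deposited table of normalized read counts, which has 24935 gene entries, and the 10 genes fill 11 of these because Dlg2 is listed under a pair of identifiers. The RNA came from the left hippocampus of C57BL/6 mice at postnatal day 14 (P14). Pups were kept with their dams either in room air (air group, 3 libraries) or in a chamber with 85% oxygen at normal pressure from P2 to P14 (hyperoxia group, 3 libraries). Pups of both sexes were used in the study, and the sex of each library was not used here. No mouse carried a transgene or a deletion as far as the labels state, the dams shared the exposure, and all tissue was taken at the end of exposure. The comparison asks how the mRNA levels of these scaffold genes differ in the developing hippocampus after prolonged high oxygen.

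In an excitatory synapse, glutamate receptors in the postsynaptic membrane are held in place by layers of scaffold proteins. Membrane-associated guanylate kinases (MAGUKs) lie closest to the membrane and bind receptor tails through PDZ domains. The Dlg genes encode them: Dlg4 encodes PSD-95, Dlg2 PSD-93, Dlg3 SAP102 and Dlg1 SAP97. The Dlgap genes encode the SAPAP (GKAP) proteins, which bind the guanylate kinase-like domain of the MAGUKs and, on their other side, the Shank proteins. Shank proteins form a deeper layer that connects through Homer and cortactin to metabotropic receptors and actin. Synpo encodes synaptopodin, an actin-binding protein needed for the spine apparatus, a stack of smooth endoplasmic reticulum in dendritic spines. In the hippocampus SAP102 is known as the prevailing MAGUK of young synapses, with PSD-95 rising as synapses mature.

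The 6 libraries held 30384052 to 38746972 reads on genes. The members, by their main entry, had between 2017 (Dlg1) and 46369 (Dlg4) recovered reads per library. Libraries are named by the group and number of their column, which do not say which animal they came from. Every direction given below rests on the group named in those columns. No gene was targeted, so no value checks those names directly. If the names were exchanged, every rise and fall given here would change sign with its size unaltered. The paper that reported these data lists higher mRNA in hyperoxia for genes called lower below, among them Dlg4, Synpo, Arc, Grin1 and Camk2b. For Arc, the paper's listed value and its discussion give a rise, while its description of the results states a decrease. In a separate set of mice the paper reports less CNPase-stained and more GFAP-stained area in CA1 after hyperoxia. In the columns named hyperoxia, 7 of 8 oligodendrocyte markers were called lower, and 3 of 8 astrocyte markers higher and 2 lower. Stained area in CA1 and RNA of the hippocampus are unlike measures. Which direction is right was not tested. Hyperoxia library 2 stood apart from the other hyperoxia libraries on the second principal component of the log2 values, which held 19.5% of the variance. In bulk tissue, fewer cells of a type and less RNA per cell cannot be told apart. None of the marker genes listed for the tissue was at 0 in all 6 libraries. Excitatory neuron markers were present at a summed normalized read count of 145056 to 158584 in air and 95862 to 99796 in hyperoxia, and 4 of the 5 were called lower. Markers of neurons in general fell in a narrower range, with sums of 195215 to 205028 in air and 183489 to 199744 in hyperoxia.

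In hyperoxia, 5 of the 10 scaffold genes were lower (Dlg3, Dlg4, Shank1, Dlgap1 and Synpo), 2 were higher (Dlg1 and Dlg2), and 3 (Shank2, Shank3 and Dlgap3) did not pass the test. The test was limma (variance modelled as a trend on mean level), run on log2(normalized read count + 1) with Benjamini-Hochberg adjustment over 17778 genes and a threshold of 0.05. Changes are hyperoxia minus air on that log2 scale. Among all genes tested, 15.6% were called lower and 14.9% higher. Among the 6523 genes whose mean reached 1000, a level all 10 members exceed and a limit set after the values were seen, 22.2% were called lower and 17.7% higher. The groups did not overlap in any of the 7 called members, and this was so for 23.8% of all genes tested in the lower direction and 22.3% in the higher direction, or 29.8% and 24.2% of the 6523. The median change of the 10 members was -0.23, beside -0.01 over all genes tested. In the plot of values by library, the members called lower and those called higher can be told apart by eye, and hyperoxia library 2 lies at an end of its group for several of them.

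**Figure D1:**
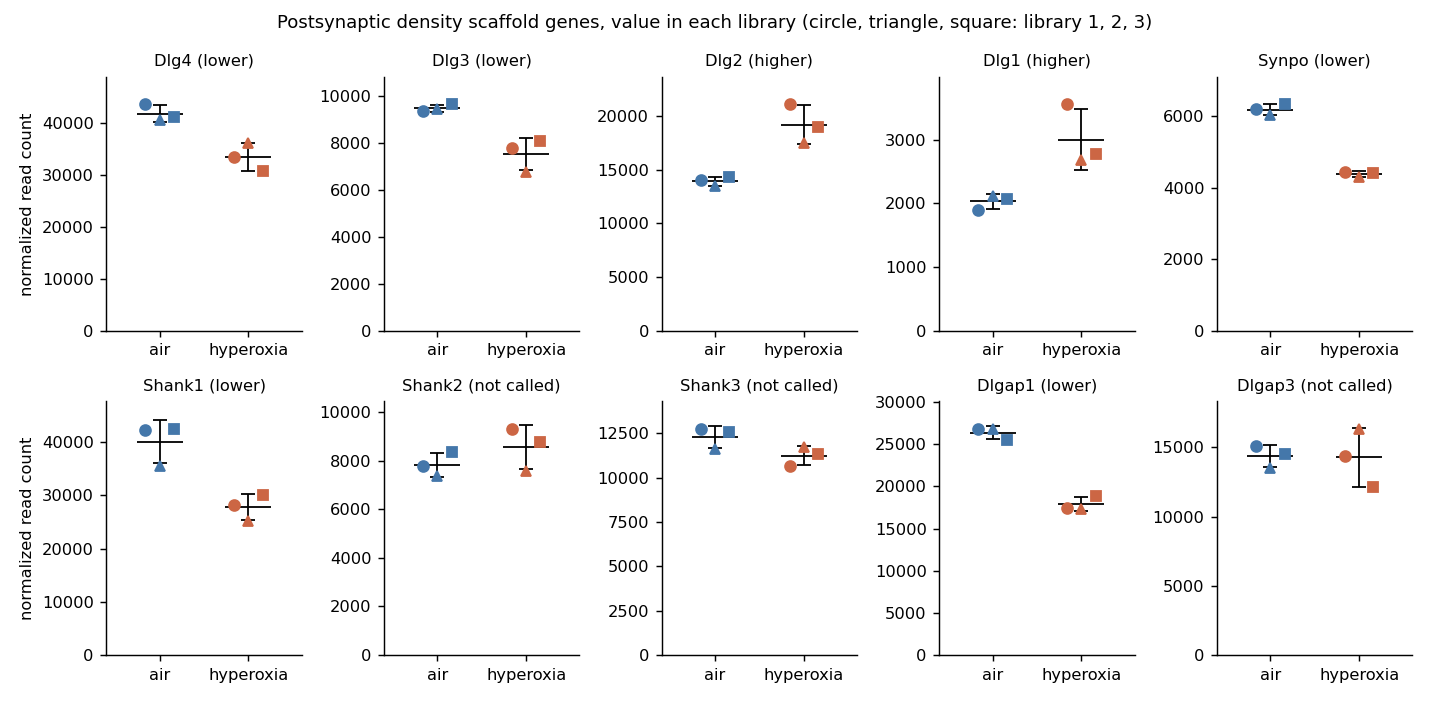
Normalized read count (vertical axis, from 0) of each scaffold gene in the 3 air and 3 hyperoxia libraries; symbols mark library 1, 2 and 3, the wide bar is the group mean and the whiskers are 1 SD. Synpo, Dlgap1 and Shank1 show all hyperoxia libraries below all air libraries, Dlg1 and Dlg2 show them above, and Shank2, Shank3 and Dlgap3 overlap.

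Dlg4, on chromosome 11 (chr11:70016942-70047522, plus strand, GRCm38), encodes PSD-95, which anchors NMDA receptors and, through TARP proteins, AMPA receptors. Its normalized read count was 43668, 40542 and 41305 in the air group (libraries 1, 2 and 3) and 33475, 36127 and 30761 in the hyperoxia group. All 3 hyperoxia libraries lay below all 3 air libraries, with hyperoxia library 2 nearest to them. The mean fell by 20.04%, from 41838 ± 1629.8 to 33454 ± 2683 (SD, n = 3 each). The log2 change was -0.33 with an SE of 0.09 and a limma adjusted p of 0.019. This call was the least stable of the called members: it was kept in 11 of 16 alternative analyses and was lost with quantile normalization (-0.12, limma adjusted p = 0.24) and when air library 1, 2 or 3 or hyperoxia library 1 was left out (limma adjusted p from 0.063 to 0.086).

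Dlg3, on the X chromosome (chrX:100767722-100818410, plus strand), encodes SAP102. The normalized read count of Dlg3 was 9381, 9432 and 9654 in the air libraries and 7778, 6756 and 8077 in the hyperoxia libraries, in column order. Air libraries were tightly grouped, and hyperoxia library 2 was the lowest of the 6. The mean fell by 20.6%, from 9489 ± 145 to 7537 ± 693, with a log2 change of -0.34 (SE 0.08, limma adjusted p = 0.012). Without air library 2 or without air library 3 the adjusted p rose to 0.054 and 0.055, past the threshold.

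Because SAP102 and PSD-95 are the MAGUKs of younger and more mature synapses, the difference between Dlg3 and Dlg4 within a library was compared between groups. The log2 value of Dlg3 minus that of Dlg4 was -2.22, -2.10 and -2.10 in the air libraries and -2.11, -2.42 and -1.93 in the hyperoxia libraries. The groups overlapped, and the lowest and the highest difference of all were both in hyperoxia libraries. The group means differed by -0.01 (exact two-sided permutation p = 0.8, where 0.1 is the smallest p that 3 against 3 libraries allow). Leaving out 1 library at a time moved this value between -0.12 and 0.12, and it was -0.17 both with quantile normalization and with the length and GC correction.

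Dlg2, a gene of 1972.6 kb on chromosome 7 (chr7:90476672-92449247, plus strand), encodes PSD-93, a MAGUK that, like PSD-95, binds NMDA receptor and potassium channel subunits. Its normalized read count was 14000.04, 13496 and 14293 in the air libraries and 21103, 17503 and 19026 in the hyperoxia libraries. Every hyperoxia library was above every air library, with hyperoxia library 2 the lowest of its group. The mean rose by 37.9%, from 13929.8 ± 403 to 19211 ± 1807, a log2 change of 0.46 (SE 0.08, limma adjusted p = 0.0039). After a correction for transcript length and GC content the change was 0.19 and no longer called (limma adjusted p = 0.081). The other Dlg2 entry, a processed transcript with its own identifier, was near the floor of the table, at 34.8, 38.7 and 19.5 in air and 46.0, 21.5 and 46.3 in hyperoxia. Its groups overlapped, with a log2 change of 0.26 (SE 0.36, limma adjusted p = 0.61).

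Dlg1, on chromosome 16 (chr16:31663443-31875129, plus strand), encodes SAP97, which takes part in trafficking of AMPA receptors and is also found at epithelial cell junctions. The normalized read count of Dlg1 was 1899.5, 2122 and 2073 in the air libraries and 3559.7, 2682 and 2775 in the hyperoxia libraries. The groups were apart, and hyperoxia library 1 was well above the other libraries of its group. The mean rose by 48.0%, from 2031 ± 117 to 3006 ± 482, a log2 change of 0.55 (SE 0.11, limma adjusted p = 0.0053). Dlg1 was called higher in all 16 alternative analyses, with changes from 0.42 to 0.63.

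The promoters of Dlg1 and Dlgap1, members that moved in opposite directions and were called in all 16 alternatives, and of Shank3, which was not called, are shown for their contrast in base composition. Each run is the 250 bases before 1 RefSeq start of the gene on GRCm38.p6, read 5′ to 3′ on the plus strand. They lie at chr16:31663193-31663442 for Dlg1, chr17:69968823-69969072 for Dlgap1 and chr15:89499358-89499607 for Shank3. RefSeq gave 4 windows for Dlg1, 2 for Dlgap1 and 1 for Shank3. The window nearest to an annotated coding start was taken, and the lowest position where distances were equal. Which start is used in the hippocampus was not tested. Capitals mark any of the motifs searched, on either strand.
Dlg1: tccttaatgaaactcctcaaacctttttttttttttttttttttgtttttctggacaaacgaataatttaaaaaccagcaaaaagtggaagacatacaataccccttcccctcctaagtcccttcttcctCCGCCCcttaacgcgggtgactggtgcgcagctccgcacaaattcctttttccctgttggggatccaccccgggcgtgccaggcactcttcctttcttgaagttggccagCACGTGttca
Dlgap1: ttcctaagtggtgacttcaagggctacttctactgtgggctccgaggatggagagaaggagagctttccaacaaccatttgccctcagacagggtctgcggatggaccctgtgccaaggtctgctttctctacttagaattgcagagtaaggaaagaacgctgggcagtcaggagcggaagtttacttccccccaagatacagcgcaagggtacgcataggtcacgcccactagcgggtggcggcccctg
Shank3: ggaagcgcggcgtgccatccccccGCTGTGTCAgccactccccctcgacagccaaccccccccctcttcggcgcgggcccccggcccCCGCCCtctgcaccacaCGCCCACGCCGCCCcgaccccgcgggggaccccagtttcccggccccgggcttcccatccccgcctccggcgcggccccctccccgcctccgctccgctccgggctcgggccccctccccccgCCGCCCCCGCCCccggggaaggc
GC content of these windows was 46.0% for Dlg1, 55.2% for Dlgap1 and 82.4% for Shank3, and the windows held 9, 9 and 31 CpG dinucleotides. Over the 32851 RefSeq promoter windows of this length the median GC content was 52.4%, from 34.8% at the 5th to 73.6% at the 95th percentile, and the median number of CpG dinucleotides was 6. The Shank3 window held 1 match to the EGR1 site GCGTGGGCG, which 0.536% of all windows hold. It also held 4 matches to the SP1 core GGGCGG (32.7% of all windows), 1 of which shares a base with the EGR1 match and 2 of which lie end to end, and 1 match to the antioxidant element core TGACNNNGC (10.2%). In the Dlg1 window there was 1 SP1 core, and the letters ACGTG of the hypoxia element core (16.6% of all windows) occurred once on each strand within 1 palindrome, 5 to 10 bases before the start. The Dlgap1 window held none of the motifs searched, which also included the cyclic AMP element TGACGTCA (1.55% of all windows) and its core TGACG (17.8%), the AP-1 site TGANTCA (6.75%), the CArG box (1.47%), the TATA box TATAAA (12.4%) and the CCAAT box CCAAT (33.8%). These matches describe letters only. A RefSeq window of this kind, within 200 bases of an annotated coding start, was matched for 6 of the 10 members.

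The make-up of the Dlg family differed between the groups on the scale of normalized read count per kilobase of transcript, which allows genes of different length to be set side by side. Dlg4 made up 73.9% ± 0.890 of the summed level of the 4 Dlg genes in air and 66.8% ± 3.35 in hyperoxia. Dlg2 went from 11.5% ± 0.314 to 17.9% ± 1.70, and Dlg1 from 2.69% ± 0.227 to 4.49% ± 0.630. For these 3 genes no hyperoxia library overlapped the air libraries. The share of Dlg3 was 11.97% ± 0.421 in air and 10.8% ± 1.36 in hyperoxia, and its groups overlapped. The summed level of the family was 16233 ± 456 per kb in air and 14344 ± 639.8 in hyperoxia. No separate test was made on these shares, since they rest on the same values as the tests of the single genes. Each value was divided by the length of 1 transcript per gene, here and for the Shank and Dlgap families. For Dlg4 this length was 3488 bases, while all its annotated exons cover 13251. For Dlg2 it was 7490 bases, and its exons cover 16280. The size of each share depends on this choice, and shares by other lengths were not computed.

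**Figure D2:**
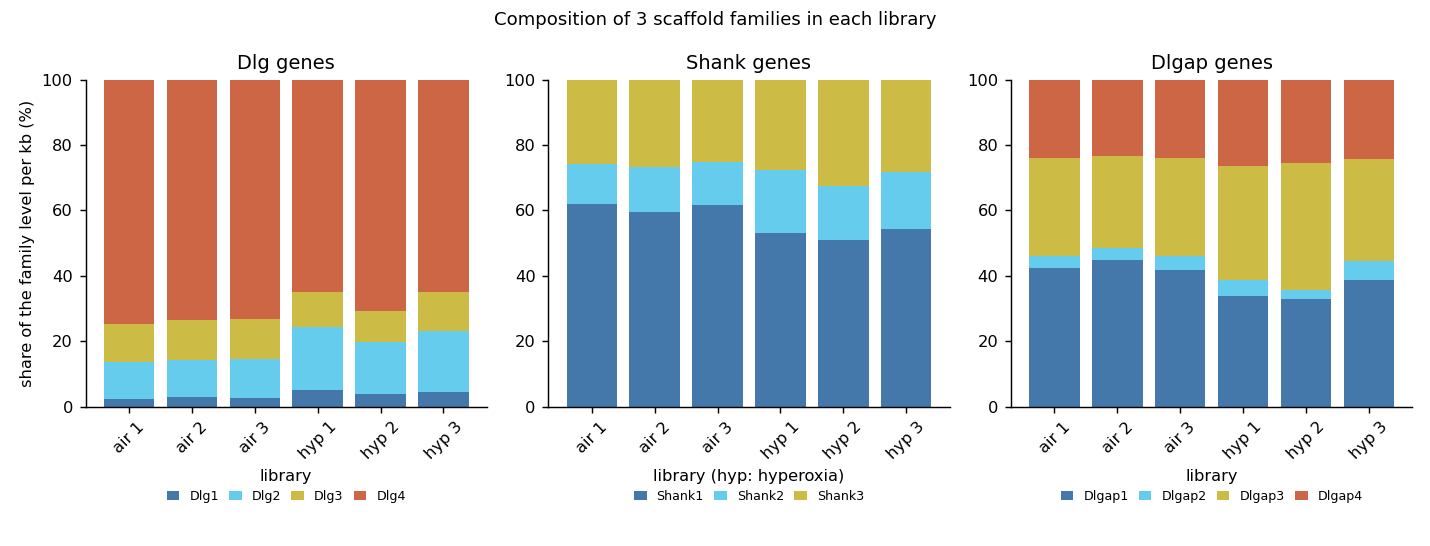
Share of each gene in the summed level per kilobase of its family (vertical axis, percent) in each library, for the Dlg, Shank and Dlgap genes; each bar is 1 library and sums to 100. The segments of Dlg1 and Dlg2 are wider, and those of Shank1 and Dlgap1 narrower, in every hyperoxia library than in any air library.

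Of the Shank genes, which link the SAPAP layer to Homer and the actin cytoskeleton, only Shank1 was called. Shank1 (chr7:44310253-44360572, plus strand) had a normalized read count of 42318, 35487 and 42541 in the air libraries and 28216, 25203 and 30051 in the hyperoxia libraries. The groups were apart, and library 2 was the lowest of each group. The mean fell by 30.6%, from 40115 ± 4010.2 to 27823 ± 2448, a log2 change of -0.53 (SE 0.10, limma adjusted p = 0.0050). The call held in all 16 alternatives, with changes from -0.69 to -0.31.

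Shank2 (chr7:144001928-144424494, plus strand), whose product is found in excitatory synapses throughout the forebrain and in cerebellum, had a normalized read count of 7772, 7370.4 and 8352 in air and 9326, 7563 and 8774 in hyperoxia. Hyperoxia library 2 lay within the air range and the other libraries of its group above it. The log2 change was 0.12 (SE 0.09, 95% interval from -0.08 to 0.33, limma adjusted p = 0.33). Without hyperoxia library 2 the change was 0.21 and was called (limma adjusted p = 0.028), and after the length and GC correction its sign turned (-0.05). Shank3 (chr15:89499623-89560261, plus strand), the member tied to Phelan-McDermid syndrome in people, had 12757, 11588 and 12563 in air and 10676, 11699 and 11343 in hyperoxia. Only hyperoxia library 2 reached into the air range. Its log2 change was -0.13 (SE 0.07, 95% interval from -0.29 to 0.03, limma adjusted p = 0.21), and the length and GC correction made it -0.25 and called (limma adjusted p = 0.014).

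Within the family, Shank1 supplied 61.1% ± 1.24 of the summed level per kb in air and 52.8% ± 1.80 in hyperoxia. Shank2 went from 13.1% ± 0.577 to 17.7% ± 1.30 and Shank3 from 25.9% ± 0.881 to 29.5% ± 2.63. In all 3 genes the groups were apart. The shares of a family sum to a fixed total, so a fall of Shank1 raises the shares of the others. The shares of Shank2 and Shank3 stood higher in hyperoxia although neither gene was called on its own. The mean of Shank3 itself changed by -8.6%. The log2 difference between Shank2 and Shank1 within a library was -2.35 ± 0.09 in air and -1.70 ± 0.09 in hyperoxia. The summed level of the family was 6679 ± 539.99 per kb in air and 5359 ± 292 in hyperoxia.

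Dlgap1 (chr17:69969073-70821413, plus strand), which encodes SAPAP1, showed the largest fall among the members. Its normalized read count was 26854, 26784 and 25453 in the air libraries and 17468, 17302 and 18850.5 in the hyperoxia libraries. Libraries within each group lay close together and far from the other group. The mean fell by 32.2%, from 26364 ± 789.7 to 17873 ± 850.3, a log2 change of -0.56 (SE 0.07, limma adjusted p = 0.0010). The call held in all 16 alternatives, with changes from -0.72 to -0.44.

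Dlgap3 (chr4:127169204-127237022, plus strand), which encodes SAPAP3, a protein whose loss causes compulsive grooming in mice, did not pass the test. The values of Dlgap3 were 15119, 13503 and 14487 in air and 14349, 16349 and 12097 in hyperoxia. Hyperoxia libraries 2 and 3 were the highest and the lowest of the 6. The log2 change was -0.02 (SE 0.11, 95% interval from -0.26 to 0.22, limma adjusted p = 0.90), and its sign turned under 3 of the alternatives. Within a library, the log2 difference between Dlgap3 and Dlgap1 was -0.88 ± 0.10 in air and -0.34 ± 0.28 in hyperoxia. Dlgap1 made up 43.1% ± 1.56 of the summed level per kb of Dlgap1 to Dlgap4 in air and 35.2% ± 3.24 in hyperoxia, while Dlgap3 went from 29.4% ± 0.924 to 35.0% ± 3.78. Both pairs of groups were apart, and a fall of Dlgap1 by itself raises the shares of the other genes.

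Synpo, on the minus strand of chromosome 18, had the smallest SE of the members. Its normalized read count was 6201, 6026 and 6334 in the air libraries and 4443, 4298 and 4420 in the hyperoxia libraries. The groups were apart by more than the range of either. The mean fell by 29.1%, from 6187 ± 155 to 4387 ± 78.0, a log2 change of -0.50 (SE 0.06, limma adjusted p = 0.0010). It stayed called in all 16 alternatives, with changes from -0.52 to -0.47.

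**Figure D3:**
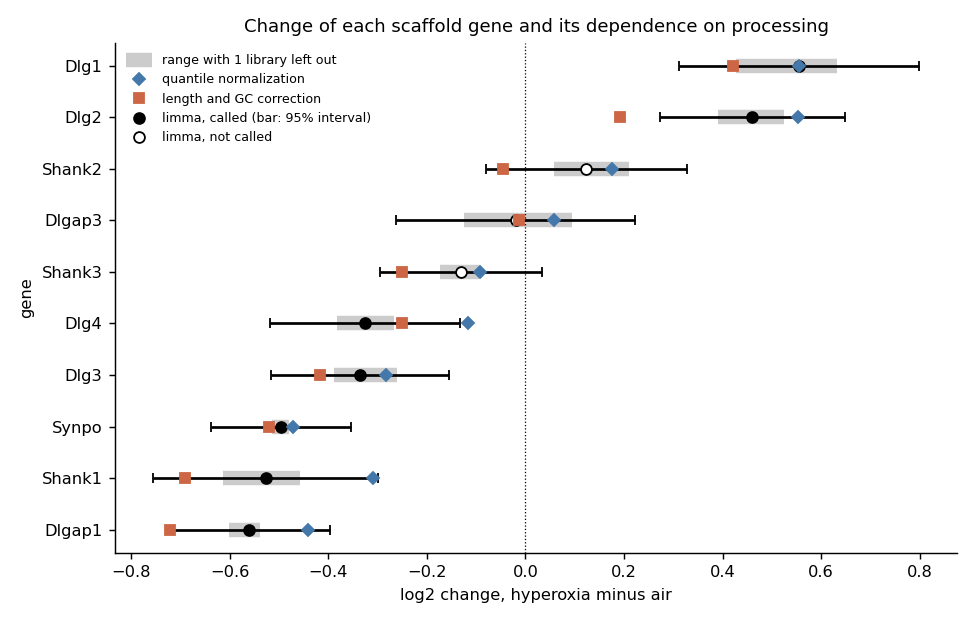
Log2 change (hyperoxia minus air, horizontal axis) of each scaffold gene with its 95% interval; filled circles are called, open circles are not, grey bars span the values with 1 library left out, diamonds show quantile normalization and squares the length and GC correction. Dlgap1, Synpo and Shank1 stay below 0 and Dlg1 above 0 under every setting drawn, while the square of Dlg2 (0.19) and the diamond of Dlg4 (-0.12) lie outside the interval of their gene.

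Set side by side per kilobase of transcript, Dlg4 had the highest level of the 10 genes in air (11995 ± 467 normalized read counts per kb) and Dlg1 the lowest (436 ± 25.04). The order between them in air was Dlgap1 (4997), Shank1 (4083), Dlgap3 (3416), Dlg3 (1942), Dlg2 (1859.8), Shank3 (1725), Synpo (1223) and Shank2 (871), and no neighbours in it overlapped over the 3 libraries. In hyperoxia Dlg4 was still first at 9591 ± 769 per kb and Dlg1 last at 645 ± 103. Between them, Dlgap3 (3391) and Dlgap1 (3388) overlapped, as did Shank1 (2832) and Dlg2 (2565), Shank3 (1576) and Dlg3 (1543), and Shank2 (952) and Synpo (867). With these lengths, Dlg2 was above Dlg3 in hyperoxia and below it in air. The levels use 1 transcript per gene and shift where another isoform is the main one. For Dlg3 the length used was 4885 bases and its exons cover 5844, and for Dlg2 these were 7490 and 16280. The order of the genes, and the crossing of Dlg2 and Dlg3, therefore depend on the choice of length. Orders by other lengths were not computed.

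Base composition differed widely among the members. The transcripts of Dlg2 and Dlg1, both called higher, had a GC content of 44.5% and 45.2%, and those of Dlg4, Synpo and Shank1, called lower, had 57.9%, 58.5% and 61.4%. Dlgap1 stood against this order, with a GC content of 46.8% and the largest fall. Dlgap3 had the highest GC content of the members, 63.9%, and no called change. Across 17735 genes the change was related to GC content with a Pearson r of -0.19 and a Spearman rho of -0.21, and to transcript length with a Spearman rho of 0.28; genes are not independent replicates and no p is given. The median change was 0.17 in the lowest of 10 equal bins of genes by GC content and -0.13 in the highest. The part of base composition in the changes of single members was not tested beyond the length and GC correction given above.

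**Figure D4:**
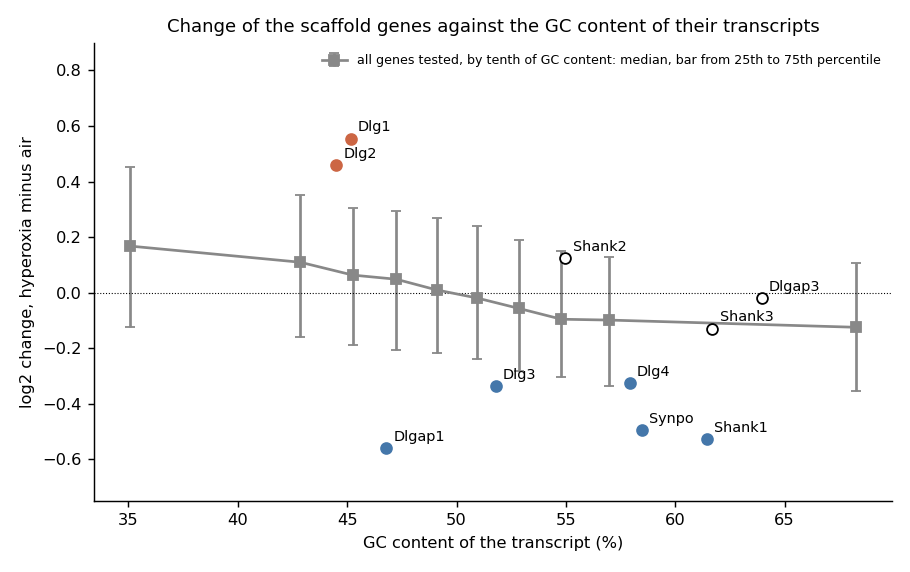
Log2 change (hyperoxia minus air, vertical axis) of the 10 scaffold genes against the GC content of their transcript (percent, horizontal axis), over the median and quartiles of all genes in 10 bins of GC content (grey). The grey medians go from 0.17 to -0.13, Dlg1 and Dlg2 lie above and Dlgap1 far below the genes of like GC content.

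Some members share exon bases with another gene. Where the other gene is on the opposite strand, reads could be given to either if counting ignored strand. Where it is on the same strand, strand does not tell the reads apart. The exons of Shank1 overlap those of 1700008O03Rik on the opposite strand by 339 bases (3.22% of the Shank1 exon bases), and those of Shank3 overlap Gm15609 by 271 bases (2.95%). Both partners had mean normalized read counts far below the members, at 80.4 and 27.1. Dlgap1 shares 92 bases with an opposite transcript and Dlg2 shares 75 and 150 bases with a pair of transcripts on its own strand. The other 6 members share none.

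Other genes of the postsynaptic density moved in both directions. Over 9 lists with 116 genes tested, members excluded, 21 were called higher and 32 lower, beside 14.9% and 15.6% of all genes tested. Among the 6523 genes whose mean reached 1000, a level that most but not all of the 116 reach, the shares were 17.7% and 22.2%. The median change of the 116 genes was -0.06. The genes named below are called, on the same log2 scale, with an SE between 0.07 and 0.16. The paralogues of the members had 1 of 6 called, Dlg5, a MAGUK known from cell polarity, which rose by 0.27; no gene of this list was called without air library 1, 2 or 3, and 2 were without hyperoxia library 2. Among 15 other MAGUK scaffolds 5 were called higher and 2 lower (median 0.15). Lin7a (0.79) and Cask (0.51), which form a complex that carries receptors and calcium channels, were higher, and Mpp1 (-0.37) and Mpp2 (-0.35) lower.

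Homer and Shank partners, 12 genes, had 3 called higher and 4 lower (median -0.11). Homer2 rose by 0.79, from 1943, 1937 and 1969 in air to 3580.0, 2744 and 3869.5 in hyperoxia, and Abi2, part of the WAVE actin complex, rose by 0.40. Baiap2, which encodes the Shank-binding protein IRSp53, had -0.78, with 14915, 14172 and 13735 in air and 8140.4, 8449 and 8312 in hyperoxia. Homer3 had -0.73. Groups were apart for all of these. Homer2 and Homer3 thus went in opposite directions.

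The 18 signalling proteins that bind PSD-95 had 2 called higher and 6 lower (median -0.10). Cit (0.74), which encodes citron kinase, and the scaffold gene Tanc2 (0.49) were higher. Its paralogue Tanc1 (-1.004) and Camk2b (-0.57), a subunit of the calcium and calmodulin kinase of the postsynaptic density, were lower. Of 24 membrane proteins that bind PSD-95, 2 were called higher and 5 lower (median -0.06), with Adam22 (0.32), the receptor of LGI1, and the potassium channel Kcna2 (0.28) higher. Grin1 (-0.59), the obligatory NMDA receptor subunit, and Cacng8 (-0.57), a TARP of hippocampal AMPA receptors, were lower. The 7 calls of this list became 4 without air library 1 or 2 or with no trend in the variance, and 12 without hyperoxia library 2. Of 9 enzymes that add palmitate to PSD-95 or related proteins or take it off, Zdhhc2 (0.57), a PSD-95 palmitoylating enzyme, and Abhd17b (0.34), a depalmitoylating enzyme, were called higher, and Zdhhc8 (-0.29) lower (median 0.19). These 3 calls became 1 without air library 1, without hyperoxia library 1 or with no trend, and 5 without hyperoxia library 2.

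Actin and spine apparatus genes, 16 in number, had 3 called higher and 7 lower (median -0.19). Myo5a (0.82), the motor that draws endoplasmic reticulum into spines, and Pdlim5 (0.59) were higher, and Rgs14 (-0.86), a signalling protein of CA2 neurons, and Ppp1r9b (-0.57), which encodes spinophilin, were lower. Of 12 mRNAs known to be carried into dendrites, 7 were called lower and 1 higher, and the list had the lowest median of the 9 (-0.43). Arc, an activity-induced gene, had -1.64, with 5294, 5074 and 5436 in air and 1850.1, 1646 and 1574 in hyperoxia. Nrgn (-0.89), which encodes the calmodulin-binding protein neurogranin, was also lower, and Map2 (0.49) was higher. Of 8 genes of the inhibitory postsynaptic scaffold, 2 were called each way (median -0.09): Dmd (0.35) and Dag1 (0.23) of the dystrophin complex were higher, and Slitrk3 (-0.53), a synaptic adhesion protein, was lower. The 4 calls of this list became 2 with any 1 library other than hyperoxia library 2 left out, and 2 with no trend. Camk2a, Ppp1r9b and other genes stand in more than 1 list, and Nrgn is also among the excitatory neuron markers.

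**Figure D5:**
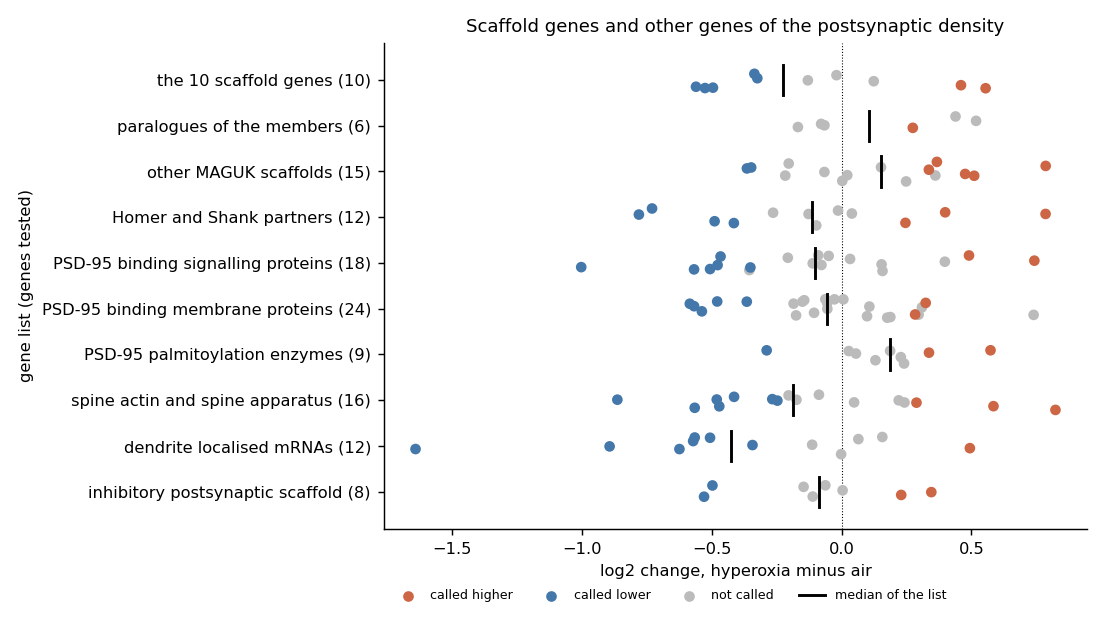
Log2 change (hyperoxia minus air, horizontal axis) of each tested gene in the set of 10 scaffold genes and in 9 lists of other postsynaptic genes; orange is called higher, blue called lower, grey not called, and the black bar is the median of the list. Most lists hold called genes on both sides of 0, and the dendrite localised mRNAs have the lowest median (-0.43).

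Markers of some other cell types also differed between the groups, while the sums of other lists overlapped. The part of these markers in the changes of the scaffold genes was not tested. Dentate granule cell markers had 4 of 6 called lower, with summed normalized read counts of 18275 to 18935 in air and 12499 to 16885 in hyperoxia. Of CA1 pyramidal cell markers 2 of 6 were called higher and 1 lower (sums of 20849 to 21575 and 19321 to 24407), and of CA3 markers 1 of 5 was called lower (10399 to 11141 and 8205 to 11359). Mature oligodendrocyte markers had 7 of 8 called lower (217460 to 330442 in air and 149240 to 182288 in hyperoxia). For genes of the thalamus, 3 of 7 were called higher and 0 lower (5259.9 to 5343 and 7257 to 8176). Log2 changes in this list ran from -0.46 to 1.72, with a median of 0.31. Slc17a6, a glutamate transporter gene listed for the thalamus, was at 630.0, 555 and 593 in air and 2037, 2186 and 1675 in hyperoxia. A large part of the rise in the sums of this list lies in this 1 gene, which does not stand for the others. Neocortical layer genes had 4 of 8 called higher and 2 lower (12974 to 14191 and 11848 to 14391). Choroid plexus markers summed to 546 to 1421 in air and 491 to 8179 in hyperoxia, the highest in hyperoxia library 3. Called higher and lower among the rest were 3 and 4 of 10 general neuronal markers, 1 and 1 of 8 interneuron, 3 and 2 of 8 astrocyte, 2 and 0 of 5 oligodendrocyte precursor, 1 and 0 of 8 microglia, 3 and 1 of 6 endothelial, and 1 and 1 of 5 red cell markers.

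For each member, the gene outside the set with the most similar pattern over the 6 libraries was found by Pearson r of log2 values, as a description. They were Lama1 for Dlg1, Apaf1 for Dlg2, Cpox for Dlg3, Tfe3 for Dlg4, Thap2 for Shank1, Igf2bp3 for Shank2, Gm6658 for Shank3, Spop for Dlgap1, Prrt4 for Dlgap3 and Mir5125 for Synpo, with r from 0.9911 to 0.9997. With 17778 genes and 6 libraries in groups that stand apart, high values arise readily: r was over 0.95 for 5.42% of all genes with Dlgap1, 5.16% with Synpo and 4.06% with Dlg4, and for 0.197% with Shank3 and 0.214% with Dlgap3, members whose groups overlap.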

How the data were processed

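RNA of the left hippocampus was sequenced from strand-specific polyA libraries, 1 per mouse. The submitters' processing notes name FastQC, STAR 2.5.3a, HTSeq and DESeq2. For build, annotation and strand setting, nothing is given in the sources used here. The deposited signal of each gene is its reads after scaling by the size factor of the library, made by the authors. All values were within 0.01 of whole reads (100% in each library). Another deposited table, of the authors' own fold changes and p-values, was not used.

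Genes with a mean value of at least 10 (17778 of 24935) were tested with limma 3.58.1 (R 4.3.3), variance modelled as a trend on mean level, of log2(value + 1), hyperoxia minus air. This scale understates changes of low genes. On simulated data the test recovered 99% of genes changed by 1 and 71% of genes changed by 0.5 on the log2 scale. There were 100 genes of each size among 17671 genes. All genes and both groups had the same fixed dispersion, and the changed genes had a mean of at least 50. These rates are therefore not the power of the present comparison. Alternatives were quantile normalization, TMM, pseudocounts of 0.5 and 5, a minimum mean of 50 or none, no trend, edgeR 4.0.16 and DESeq2 1.42.0 on recovered reads, a length and GC correction (mgcv 1.9.3), and each library left out. Replicate pairs differed by more than sampling noise (chi-square per gene 6.54 to 47.2). Positions, lengths and GC content came from GENCODE M21 on GRCm38, which held 99.7% of the gene identifiers, using the longest transcript of the best APPRIS grade. Python 3.11.15 handled the tables.

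The members, the lists and the rule for named genes were chosen with earlier results of these data known. The genes named are the 10 members, up to 2 called genes with the largest rise and up to 2 with the largest fall of each list, marker genes where a result turns on them, and the gene nearest in pattern to each member. A gene that this rule names is not reported here. P-values measure the spread between the libraries of a group, which the labels give as separate animals. In limma this spread is moderated over all genes tested. The labels do not give litter or chamber, so animals of a group may share them.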

Additional observations from a re-analysis of the deposited data

How the results depend on the processing

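Of 160 values for the 10 members under 16 alternatives, 146 kept their direction and their side of the threshold. The number of members called lower (5) was 3 to 5 with 1 library left out; it was 3 without air library 2 or without air library 3, where Dlg3 and Dlg4 lost the call. The number called higher (2) was 2 to 3 with 1 library left out and 1 after the length and GC correction, where Dlg2 lost it. The sign turned for Shank2 after the length and GC correction (-0.045), and for Dlgap3 with quantile normalization (0.058), without air library 1 (0.018) and without hyperoxia library 3 (0.094). None of these values was called, and the cause was not tested. Over all genes, 5425 were called, from 3048 without air library 1 to 7756 without hyperoxia library 2; fewer libraries enter these fits. For the other postsynaptic genes the count (53) was 37 to 73 with 1 library left out, and for the difference between Dlg3 and Dlg4 the value (-0.01) was -0.12 to 0.12, and -0.17 with quantile normalization and with the length and GC correction. Across the alternatives, 44.97% to 52.3% of the called genes were higher, and the edgeR and DESeq2 fits called 5501 and 5611 genes. No paired analysis was possible because the labels number the animals 1 to 6 and the groups share no number. With 3 libraries a group, single outlying libraries were not tested for. The members, by their main entry, had at least 2017 reads in every library.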
